A study of Danio rerio with 10 samples.

Results

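The comparison described here is the effect of thallium at 800 ppb set against its effect at 200 ppb, gene by gene, in whole zebrafish embryos. Members were the genes with a mean of at least 1 CPM (counts scaled to library size) over all 10 libraries, which were 18796 of the 32057 genes shared by the count tables, and all 18796 could be tested. For each gene the 800 ppb effect was the log2 level of 800 ppb replicates 1 and 2 over 0 ppb replicates 4 and 5. The 200 ppb effect was the mean over replicates 1, 2 and 3 of the log2 level at 200 ppb over the 0 ppb library of the same number. The difference is the first minus the second, so the effects share no library. Effects and differences are printed as estimated by a count model fitted in edgeR, and shifts of single pairs or libraries as log2 levels. The model can depart from the means of log2 levels: the difference of ENSDARG00000114910 was -1.013 in the model and -0.885 from the means. Of the genes with a proper symbol, PRKCE (ENSDARG00000069928) lay just inside the limit with a mean of 1.0002 CPM and a difference of -0.08 (log2), and TMEM170B just outside it with 0.9997 CPM and -0.48.

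Wild-type embryos of unstated clutch and number per library were kept in thallium nitrate (TlNO3) at 0, 200 or 800 ppb between 6 and 48 hours post fertilisation, and RNA of the embryos was sequenced. There were 5 libraries at 0 ppb, 3 at 200 ppb and 2 at 800 ppb. A hospital's core facility made the libraries of replicate 1 at 0 and 200 ppb, and a company (the provider) made the other 8. No label says whether replicates were separate clutches. The p-values therefore cover only the spread seen among these libraries, which may be technical.

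Thallium enters cells as a monovalent ion of nearly the size and charge of potassium, is carried by potassium channels and pumps, and also binds thiol groups of proteins. Cells that hold misfolded protein raise cytosolic chaperones through heat shock factor HSF1. Cells short of amino acids, or with stressed mitochondria, raise ATF4, a transcription factor whose targets make and import amino acids and charge transfer RNAs.

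Depth ran from 12101535 to 48336918 counts per library. The hospital core's pair stood apart before any dose was compared: the 80 ribosomal protein genes measured summed to 26749 and 25318 CPM there and to between 60817 and 78173 CPM in the other 8 libraries. The block of 0 ppb replicates 4 and 5 with 800 ppb replicates 1 and 2 also stood apart, with 4.25 to 4.61% of counts on the mitochondrial genome against 1.94 to 3.83% in the other 6 libraries. The 800 ppb effect was therefore measured in libraries that hold no 200 ppb sample, and a difference in dose and a difference between these sets of libraries cannot be told apart. Whole-embryo marker lists were present in every library, fast muscle for example at 74622 to 116204 CPM over 29 genes. Where a marker falls in a bulk sample, fewer cells of a type and less RNA per cell cannot be told apart. Summed levels of 13 cell type lists at 800 ppb were 0.899 to 1.055 times those of 0 ppb replicates 4 and 5. Both 800 ppb libraries lay below both controls for heart, red blood cells, glia, and cartilage and bone, and above both for ionocytes and kidney. They overlapped the controls for the other 8 lists. Such a split is common with 2 libraries against 2: of single members, 6146 of 18796 had both 800 ppb libraries beyond both controls. A sum weighs the most abundant genes most, and in the heart list most single genes went the other way. There 14 of 21 were above 0 at 800 ppb, with a median of 0.105 (log2). The heart gene that passed, nppa, was higher, at 0.875 (SE 0.155). For red blood cells, glia, and cartilage and bone 5 of 18, 8 of 25 and 4 of 26 genes were above 0. The part of cell composition in the results was not tested.

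More genes passed at 800 than at 200 ppb, a contrast in which dose and set of libraries cannot be told apart. At 800 ppb 65 genes passed the test, 49 higher and 16 lower, which is 0.311% of the 20867 genes tested (edgeR quasi-likelihood test, Benjamini-Hochberg adjusted p under 0.05). At 200 ppb 0% passed, that is 0 genes by edgeR, DESeq2 and limma-voom alike, with 1.1% of genes at an unadjusted edgeR p under 0.05 against 7.32% at 800 ppb. The difference between the effects passed for 16 genes, 9 higher and 7 lower at 800 ppb, or 0.0767% of those tested, with 4.33% at an unadjusted p under 0.05. The median standard error of a member's effect was smaller at 200 ppb, 0.13 against 0.17 on the log2 scale. Each gene's spread was estimated over all 10 libraries together, so these errors also reflect the number of libraries and are not spreads measured at each dose. The share of 1.1% at 200 ppb is below the 0.05 that uniform p-values would give, and the calibration of that test was not examined. Without control blocks, with only the preparing site and the dose as terms, 9 genes passed at 800 ppb and 0 for the difference. The calls therefore rest on setting each thallium library against the controls assigned to it. For 800 ppb that assignment came from the definition of the comparison, and no label states it.

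All 65 genes that passed at 800 ppb had the larger effect there, as did 12907 of 18796 members. Without a block 58 of the 65 did, and with the label's number as block 63. Their median effect was 0.80 at 800 ppb and 0.07 at 200 ppb (log2), and the median gene had 9% of its 800 ppb effect at 200 ppb, with a highest share of 39.9%. The genes were picked by their 800 ppb effect, which overstates it, and the 200 ppb effect comes from other libraries. Of the 65, 50 had the same sign at 200 ppb, or 76.9% against 52.7% of all members. All 3 pairs at 200 ppb moved in the direction of 800 ppb for 27 genes, 41.5% against 13.5% of members. Genes that rose kept their sign at 200 ppb in 40 of 49 cases and genes that fell in 10 of 16. Those that fell and changed sign included ENSDARG00000116076, ENSDARG00000115978, ENSDARG00000114910 and zgc:158463, whose levels differed widely between sets of control libraries. The others were GATM and si:ch211-256m1.8, at 0.005 and 0.001 at 200 ppb (log2). The counts therefore do not show that rises and falls differ in this.

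**Figure D1:**
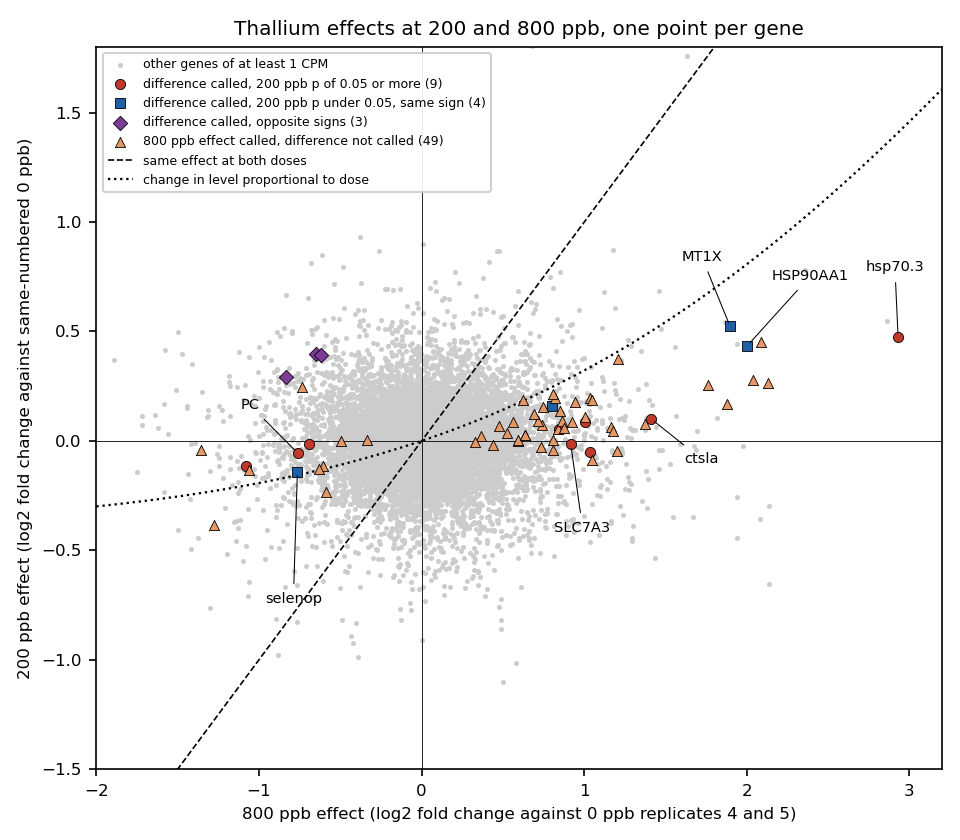
Each point is a gene of at least 1 CPM, with its 800 ppb effect on the x axis and its 200 ppb effect on the y axis, both as log2 fold changes (4 genes lie outside the axes). Coloured symbols mark the 65 genes that passed at 800 ppb, by class. All 65 have the larger effect at 800 ppb, so none reaches the dashed line of equal effects; on the dotted curve the change in level is proportional to dose.

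A response in which the change in level scaled with the concentration in water served as a reference, drawn as the dotted curve in the plot of effects at both doses. The 95% interval of the 200 ppb effect lay below that reference (nearer to no effect, or on the other side of it) for 22 of the 65 genes, held it for 43 and lay above it for 0. For 35 genes the interval held both no effect and the proportional value, so the data do not separate a weak graded response from none in those genes. The interval reached the full 800 ppb effect in 0 of 65 genes. Each gene's reference came from its 800 ppb estimate, taken without error. Picking genes by that estimate overstates it, which moves the reference away from no effect and tilts these counts toward below.

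Graded genes, which passed for the difference and had a 200 ppb effect of the same sign with an unadjusted p under 0.05, numbered 4: HSP90AA1, SERPINH1, MT1X and selenop. None of them passed at 200 ppb after adjustment. The class name therefore rests on unadjusted edgeR p at 200 ppb, from 0.000141 for HSP90AA1 to 0.0207 for SERPINH1, and does not establish a response at that dose. HSP90AA1, the stress-inducible cytosolic HSP90 chaperone, had the smallest p of the difference of all genes. It was at 58.1, 91.0 and 125 CPM in 0 ppb replicates 1 to 3 and at 81.4, 119 and 168 CPM in the 200 ppb libraries of the same numbers, against 85.0 and 94.2 CPM in 0 ppb replicates 4 and 5 and 406 and 312 CPM at 800 ppb. Each 200 ppb library lay above its own control, and both 800 ppb libraries lay above all 8 others. The gene rose 4.01-fold at 800 ppb (log2 SE 0.11), had a log2 value of 0.44 (SE 0.09) at 200 ppb, 21.7% of the higher dose, and differed by 1.57 (SE 0.14; edgeR, Benjamini-Hochberg adjusted p = 0.000208). Its interval at 200 ppb, 0.25 to 0.62, lay below the proportional value of 0.81.

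MT1X is the name table's human-style symbol for a zebrafish metallothionein, a small thiol-rich protein that binds metal ions. It was at 9.10, 37.1 and 12.3 CPM in 0 ppb replicates 1 to 3 and at 9.53, 63.2 and 20.5 CPM in the matching 200 ppb libraries, against 26.4 and 19.9 CPM in 0 ppb replicates 4 and 5 and 97.4 and 73.9 CPM at 800 ppb. The levels at 200 ppb overlapped the controls as groups, and the pairs differed: replicate 1 moved by 0.07, replicates 2 and 3 by 0.77 and 0.73 (log2). The effect was 3.73-fold at 800 ppb (log2 SE 0.18) and 0.52 on the log2 scale (SE 0.15) at 200 ppb, 27.6% of the higher dose and within reach of the proportional value of 0.75.

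SERPINH1 (ENSDARG00000019949), the collagen chaperone HSP47 of the endoplasmic reticulum, was at 142, 224 and 360 CPM in 0 ppb replicates 1 to 3 and at 156, 251 and 408 CPM in the matching 200 ppb libraries. It was at 232 and 235 CPM in 0 ppb replicates 4 and 5 and at 379 and 434 CPM at 800 ppb. Both 800 ppb libraries lay above those controls, but 800 ppb replicate 1 lay below 200 ppb replicate 3. All 3 pairs moved up by a like amount, 0.13 to 0.18 (log2), while the 0 ppb libraries differed among themselves by more than that. Its effect was 0.80 (SE 0.08) at 800 ppb and 0.16 (SE 0.06) at 200 ppb.

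The gene of this class that fell was selenop, which encodes the secreted protein that carries selenium to tissues. It was at 632, 1013 and 849 CPM in 0 ppb replicates 1 to 3 and at 565, 964 and 745 CPM in the matching 200 ppb libraries, against 962 and 1040 CPM in 0 ppb replicates 4 and 5 and 597 and 582 CPM at 800 ppb. All 3 pairs moved down. Both 800 ppb libraries lay below 0 ppb replicates 4 and 5, but not below 200 ppb replicate 1. The effect was -0.76 (SE 0.07) at 800 ppb and -0.14 (SE 0.05) at 200 ppb. The differences of SERPINH1, MT1X and selenop had edgeR adjusted p (Benjamini-Hochberg) between 0.0236 and 0.0362.

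**Figure D2:**
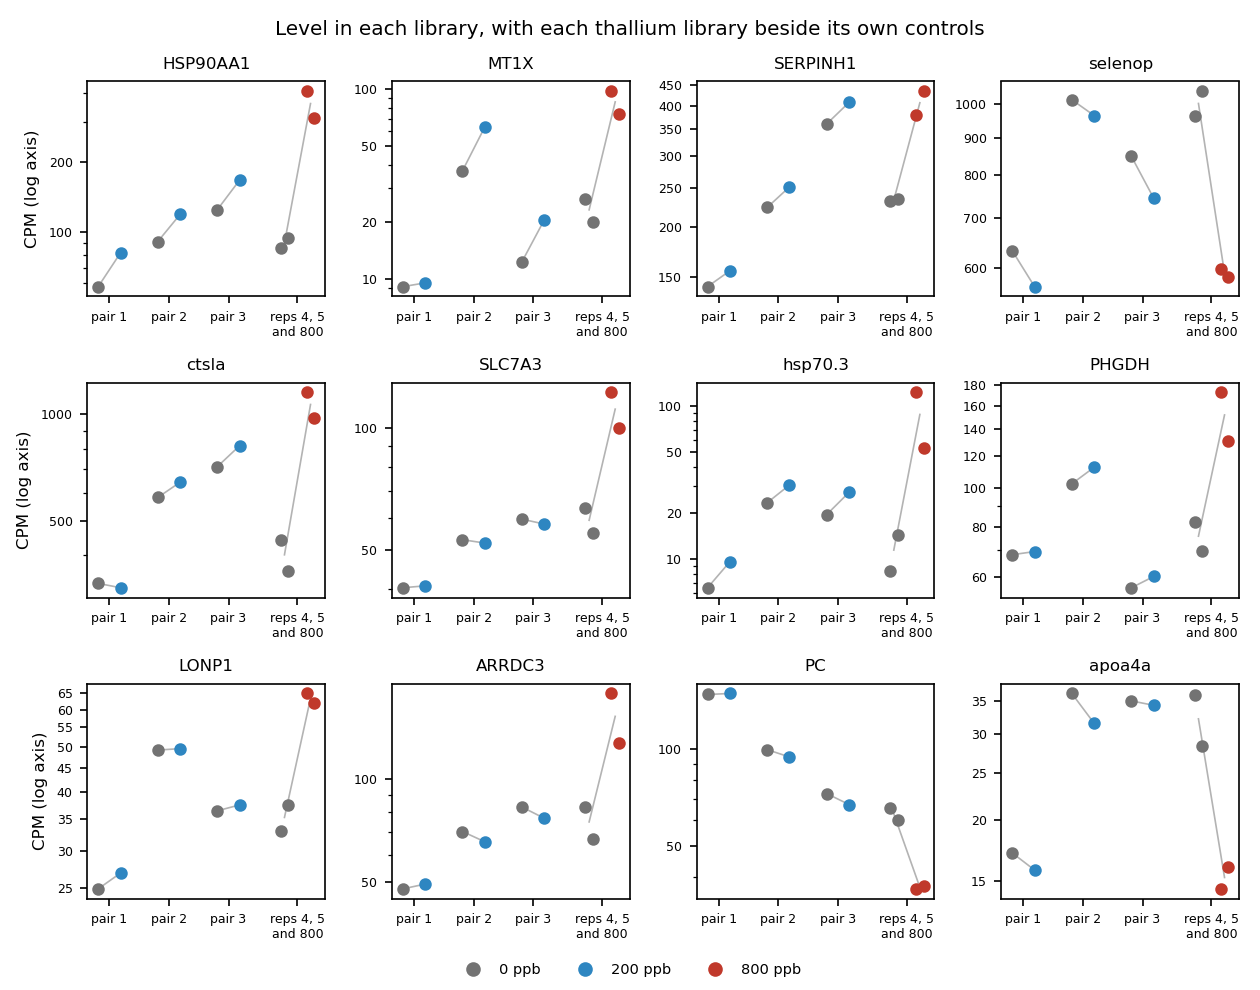
Level of 12 genes in every library in CPM on a log axis, grey for 0 ppb, blue for 200 ppb and red for 800 ppb; lines join each 200 ppb library to its own control and the mean of 0 ppb replicates 4 and 5 to the mean of both 800 ppb libraries. HSP90AA1 climbs in every pair and to 406 and 312 CPM at 800 ppb, while SLC7A3 stays within 40.2 to 63.3 CPM in all libraries but those at 800 ppb, which are at 122.5 and 100.2 CPM.

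High-dose genes, which passed for the difference and had an unadjusted p of 0.05 or more at 200 ppb, numbered 9. Of these, 6 rose at 800 ppb (ctsla, SLC7A3, PHGDH, LONP1, ARRDC3 and hsp70.3) and 3 fell (PC, apoa4a and the unnamed si:dkey-52d15.3). Missing that p at 200 ppb does not show that 200 ppb had no effect, so the interval is given for each. The differences had edgeR adjusted p (Benjamini-Hochberg) from 0.000438 for ctsla to 0.04997 for apoa4a, and the gene just outside, hsp70l, had 0.0628.

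The first of them by p, ctsla, encodes cathepsin L, a lysosomal protease. It was at 333, 582 and 712 CPM in 0 ppb replicates 1 to 3 and at 324, 643 and 816 CPM in the matching 200 ppb libraries, against 440 and 362 CPM in 0 ppb replicates 4 and 5 and 1154 and 979 CPM at 800 ppb. At 200 ppb replicate 1 lay below its control and replicates 2 and 3 above theirs, each by less than 0.20 (log2), while both 800 ppb libraries lay above all 8 others. The effect was 1.41 (SE 0.10) at 800 ppb, 2.66-fold, and 0.10 at 200 ppb with an interval from -0.07 to 0.27.

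Genes of serine synthesis and amino acid import were among them. PHGDH, the enzyme of the first step of serine synthesis, was at 68.2, 102 and 56.4 CPM in 0 ppb replicates 1 to 3, at 69.5, 113 and 60.2 CPM in the matching 200 ppb libraries, at 82.2 and 69.5 CPM in 0 ppb replicates 4 and 5 and at 173 and 131 CPM at 800 ppb. SLC7A3 (ENSDARG00000020645), a transporter of cationic amino acids, was at 40.2, 52.9 and 59.5 CPM in 0 ppb replicates 1 to 3, at 40.7, 51.9 and 57.8 CPM in the matching 200 ppb libraries, at 63.3 and 54.9 CPM in 0 ppb replicates 4 and 5 and at 122.5 and 100.2 CPM at 800 ppb. For SLC7A3 all 200 ppb libraries lay within the range of the 0 ppb libraries, and for PHGDH replicate 2 lay above it. PHGDH rose by 1.01 (SE 0.12) and SLC7A3 by 0.92 (SE 0.10) at 800 ppb. At 200 ppb the intervals were -0.12 to 0.29 for PHGDH and -0.20 to 0.16 for SLC7A3, and both excluded the proportional values of 0.32 and 0.29.

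LONP1, a protease of the mitochondrial matrix, was at 33.0 and 37.6 CPM in 0 ppb replicates 4 and 5 and at 65.0 and 61.9 CPM at 800 ppb. In its 3 pairs the 200 ppb value moved by 0.01 to 0.11 (log2), and the pooled interval was -0.11 to 0.22. ARRDC3 (ENSDARG00000036028), an arrestin-domain adaptor of receptor sorting, went from 83.3 and 66.8 CPM to 179 and 128 CPM at 800 ppb, and its 200 ppb interval was -0.29 to 0.18. Both 800 ppb libraries lay beyond the controls for each of these genes.

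The inducible HSP70 gene hsp70.3 had the largest rise of the 16 genes. It was at 6.52, 23.3 and 19.6 CPM in 0 ppb replicates 1 to 3 and at 9.64, 30.5 and 27.3 CPM in the matching 200 ppb libraries, against 8.45 and 14.5 CPM in 0 ppb replicates 4 and 5 and 122 and 53.3 CPM at 800 ppb. All 3 pairs moved up at 200 ppb, by 0.39 to 0.56 (log2), and the unadjusted p of 0.063 placed the gene beside the limit between the graded and high-dose classes. Its effect was 2.93 (SE 0.31) at 800 ppb and 0.48 (SE 0.24) at 200 ppb. Inducible HSP70 genes are near-identical copies, so reads may be split between hsp70.3, hsp70l and HSPA2, and the values of each are uncertain to that extent.

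Among the falls, PC (ENSDARG00000051939), which encodes pyruvate carboxylase of the mitochondria, went from 65.5 and 60.2 CPM in 0 ppb replicates 4 and 5 to 36.6 and 37.4 CPM at 800 ppb. Its 200 ppb interval was -0.19 to 0.08, and its 0 ppb replicate 1 was at 148 CPM, more than any provider library. The apolipoprotein gene apoa4a went from 36.1 and 28.4 CPM to 14.4 and 16.02 CPM at 800 ppb, but was at 17.1 and 15.8 CPM in the hospital core's 0 and 200 ppb libraries, so its 800 ppb level was low against provider libraries but not against those. The falls were -0.76 (SE 0.09) for PC and -1.08 (SE 0.13) for apoa4a, and the intervals of both at 200 ppb held the proportional value as well as no effect.

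**Figure D3:**
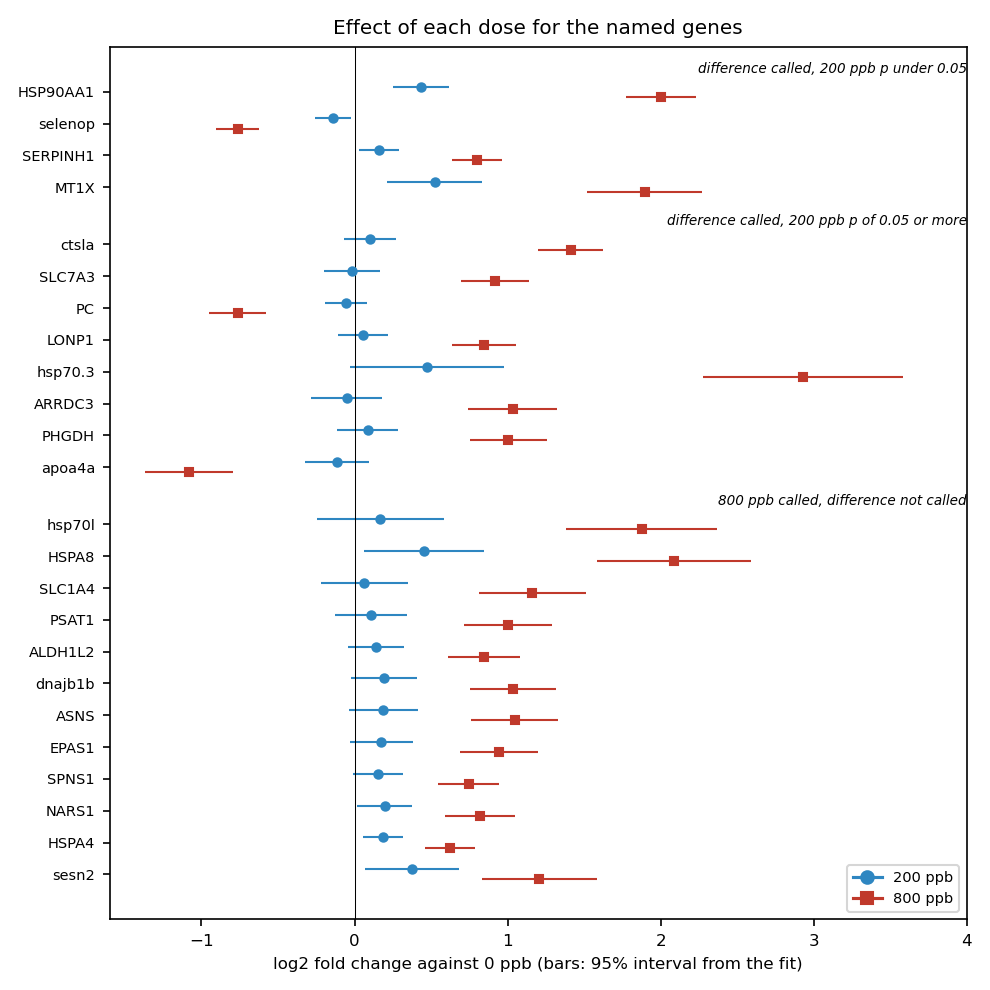
Log2 fold change against 0 ppb at 200 ppb (blue circles) and 800 ppb (red squares) with 95% intervals from the fit, for the named graded genes at the top, the high-dose genes in the middle and 12 genes that passed at 800 ppb without a called difference below. The intervals at the 2 doses do not overlap for the upper groups, and all 200 ppb values lie nearer to 0. The upper groups were picked by a called difference and the lower group by the 800 ppb effect, so both features were largely set in advance.

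Several of these symbols are shared with a paralog that did not pass. At 800 ppb the second gene named SERPINH1 had -0.13 (SE 0.08), that of SLC7A3 0.02 (SE 0.21), that of PC 0.05 (SE 0.09) and that of ARRDC3 0.50 (SE 0.13).

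The differences were sensitive to single libraries. Leaving out either library of a pair at 0 and 200 ppb leaves its partner without a comparison, so both fits of a pair are nearly the same. HSP90AA1 and ctsla passed in all 10 fits that left out a library, and the other named genes of these classes in 2 to 4 of them. The count of differences was 2 in each of the 6 fits that left out a library of replicates 1 to 3 at 0 or 200 ppb, 12 and 21 without 0 ppb replicate 4 or 5, 7 without 800 ppb replicate 1 and 56 without 800 ppb replicate 2. The 800 ppb libraries were unequal: of the 49 genes that rose, 44 were higher in replicate 1 than in replicate 2, against 50.9% of members. The signs of the 16 differences were kept in each of these fits. The genes were picked by that difference in the same libraries, so kept signs were likely in advance.

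The remaining 49 genes passed at 800 ppb without passing for the difference, 40 higher and 9 lower. All 49 had the larger effect at 800 ppb, with unadjusted edgeR p of the difference from 5.12e-05 to 0.0163. The genes were picked by their 800 ppb effect, which is part of the difference, so both values lean that way in advance. Missing the call for the difference does not show like effects at the doses. Their 200 ppb effects ran from -33.4 to 39.9% of those at 800 ppb. Those of the same sign with an unadjusted p under 0.05 at 200 ppb numbered 6: HSPA8 (ENSDARG00000037403), NARS1, HSPA4, sesn2, SOAT2 and otos2. That mark, also used for the graded genes, was met by 122 of 18796 members (0.65%). It was met by 30 of the 1408 members with an unadjusted edgeR p under 0.05 at 800 ppb.

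The list of heat shock genes and cytosolic chaperones gave the most calls of the 33 lists. Of its 49 measured genes, 10 passed at 800 ppb, all higher, against 0.311% of genes tested, and 3 of those for the difference, against 0.0767%. These counts include SERPINH1, a chaperone of the endoplasmic reticulum and not of the cytosol. They also include hsp70.3, hsp70l, HSPA2 and both genes named HSPA8, which may share reads and so may not be separate calls. The lists were chosen with earlier results of these data known. Shares of calls set against all genes tested, here and for the lists below, are therefore descriptions and not tests. The list's median was 0.24 at 800 ppb and 0.08 at 200 ppb (log2), against 0.00 for all members at either dose. At 200 ppb 42 of the 49 were above 0, where 9290 of 18796 members were. An unadjusted edgeR p under 0.05 in the upward direction was found for 6, against 114 of 18796 members. The pairs gave medians of 0.05, 0.11 and 0.07, so the upward lean was present in each, and the 800 ppb libraries gave 0.27 and 0.27. Of the 10 that passed, 7 moved up in all 3 pairs. A lean at 200 ppb was not particular to this list, and other lists leaned downward. Above 0 were 7 of 80 ribosomal protein genes, 1 of 18 red blood cell genes and 2 of 26 cartilage and bone genes.

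Within the list, HSPA4 (ENSDARG00000004754), an HSP110-type nucleotide exchange partner of HSP70, was at 102 and 96.8 CPM in 0 ppb replicates 4 and 5 and at 154 and 152 CPM at 800 ppb, an effect of 0.62 (SE 0.08). It had 0.19 (SE 0.06) at 200 ppb, 30.1% of the higher dose, and all 3 pairs moved up. The co-chaperone dnajb1b, an HSP40 that delivers substrates to HSP70, had 1.04 (SE 0.13) and 0.19 (SE 0.10). HSP90AB1, the constitutive HSP90, had no such lean at the low dose. It was at 4712 and 4625 CPM in 0 ppb replicates 4 and 5 and at 6117 and 5886 CPM at 800 ppb. The gene rose by 0.36 (log2, SE 0.06) there and had 0.02 (SE 0.05) at 200 ppb.

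The symbol HSPA8, a constitutive HSP70, belongs to 2 genes. ENSDARG00000068992 was at 4475 and 4280 CPM in 0 ppb replicates 4 and 5 and at 5800 and 5208 CPM at 800 ppb, an effect of 0.33 (SE 0.06) against -0.01 (SE 0.05) at 200 ppb. ENSDARG00000037403 was at 2.53 and 2.79 CPM in the same controls and at 11.98 and 10.7 CPM at 800 ppb, an effect of 2.09 (SE 0.24) against 0.45 (SE 0.18). Reads of these copies could be shared, which was not tested.

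Lists of amino acid supply had medians above 0 at 800 ppb and near 0 at 200 ppb, where 9421 and 9290 of 18796 members were above 0. Of 33 measured genes of the ATF4 and integrated stress response list, 31 were above 0 at 800 ppb and 16 at 200 ppb, with medians of 0.32 and 0.00 (log2). Of these, 6 passed at 800 ppb, all higher (PHGDH, PSAT1, ASNS, STC2 (ENSDARG00000056680), sesn2 and atf5b), against 0.311% of genes tested, and PHGDH passed for the difference. Among 20 aminoacyl-tRNA synthetases, which charge transfer RNAs, 19 were above 0 at 800 ppb with a median of 0.32, and 14 at 200 ppb with a median of 0.04, and NARS1 and MARS1 passed at 800 ppb. Among 28 amino acid transporters 4 passed at 800 ppb (SLC7A3, SLC1A4, SLC3A2 and SLC7A5), and the medians were 0.14 and -0.02. The 800 ppb libraries were unequal. The median of the ATF4 list was 0.46 in replicate 1 and 0.21 in replicate 2, and that of the synthetases 0.38 and 0.29. For the transporters it was 0.22 in replicate 1 and 0.05 in replicate 2, where 17 of 28 were above 0, so their 800 ppb median rests mostly on replicate 1.

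ASNS, asparagine synthetase, was at 33.8, 31.7 and 27.5 CPM in 0 ppb replicates 1 to 3, at 36.3, 37.1 and 32.7 CPM in the matching 200 ppb libraries, at 27.11 and 32.4 CPM in 0 ppb replicates 4 and 5 and at 70.26 and 52.5 CPM at 800 ppb. Each pair moved up, and the effects were 0.19 (SE 0.11) and 1.05 (SE 0.13). SLC1A4, a carrier of neutral amino acids, went from 103 and 74.7 CPM to 240 and 156 CPM at 800 ppb, 1.16 (SE 0.16), and had 0.06 (SE 0.13) at 200 ppb. The stress sensor sesn2, which restrains growth signalling, kept the larger share, with 0.38 (SE 0.14) at 200 ppb and 1.21 (SE 0.18) at 800 ppb. Their differences did not pass, with unadjusted edgeR p of 0.000147 for ASNS, 0.000112 for SLC1A4 and 0.0024 for sesn2.

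**Figure D4:**
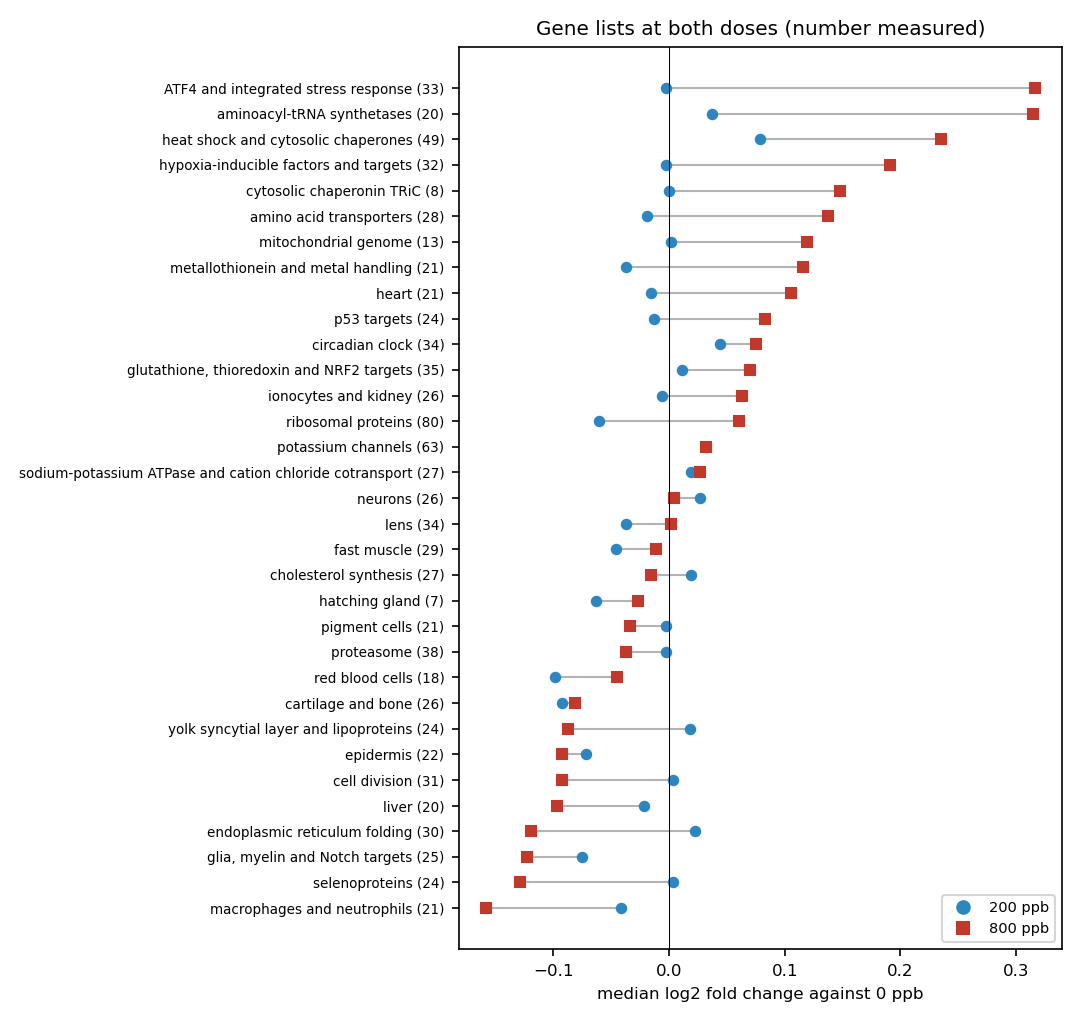
Median log2 fold change against 0 ppb at 200 ppb (blue circles) and 800 ppb (red squares) for 33 gene lists, with the number of genes measured in brackets. The ATF4, aminoacyl-tRNA synthetase and heat shock lists lie farthest right at 800 ppb, at 0.32, 0.32 and 0.24. The heat shock list has the highest median at 200 ppb, 0.08. The 200 ppb medians largest in size are on the lower side, red blood cells at -0.099 and cartilage and bone at -0.093.

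Of 32 measured hypoxia-inducible factors and targets, 2 passed at 800 ppb, against 0.311% of genes tested, and the list's median was 0.19 there and 0.00 at 200 ppb (log2). The lean came mostly from 800 ppb replicate 1, with a median of 0.27 and 26 of 32 genes above 0, where replicate 2 had 0.02 and 17. EPAS1 (ENSDARG00000008697), the factor HIF-2 alpha, was at 122.5 and 110.3 CPM in 0 ppb replicates 4 and 5 and at 257 and 191 CPM at 800 ppb, and had 0.95 (SE 0.12) there and 0.18 (SE 0.10) at 200 ppb. The endoplasmic reticulum, NRF2 and p53 lists had no calls. Folding genes of the endoplasmic reticulum lay lower rather than higher at 800 ppb: 4 of 30 were above 0, the median was -0.12, and 0 passed by edgeR, with 7 at an unadjusted p under 0.05 in the downward direction, where 659 of 18796 members were. At 200 ppb 19 of these 30 were above 0. Targets of the antioxidant regulator NRF2 and of p53 had 0 edgeR calls at either dose, with 5 of 35 and 4 of 24 at an unadjusted p under 0.05 upward at 800 ppb, where 749 of 18796 members were. GCLC and GCLM, the subunits of the enzyme that limits glutathione synthesis, had 0.39 (SE 0.10) and 0.54 (SE 0.14) at 800 ppb and -0.01 (SE 0.08) and 0.07 (SE 0.10) at 200 ppb.

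Of 63 measured potassium channel genes, 1 passed at 800 ppb and 0 for the difference, against 0.311% and 0.0767% of genes tested. The list's median was 0.03 at either dose. The gene that passed was KCNJ1 (ENSDARG00000090866), an inward rectifier, which went from 11.3 and 8.98 CPM in 0 ppb replicates 4 and 5 to 2.87 and 5.14 CPM at 800 ppb, a fall by 1.36 on the log2 scale (SE 0.27). The table gives the symbol KCNJ1 to 7 measured genes, and the other 6 had -0.57 to 1.37 at 800 ppb, none of which passed. Whether reads are split between these copies was not tested. Of 27 genes of the sodium-potassium ATPase and cation chloride cotransport, 0 passed by edgeR. At 800 ppb 5 had an unadjusted edgeR p under 0.05 upward, where 749 of 18796 members did. Downward it was 1, where 659 of 18796 members did. Among the 5 upward was ATP1B1 (ENSDARG00000076833), a pump subunit, at 0.38 (SE 0.08).

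Ribosomal protein genes leaned in opposite directions, with a median of -0.06 at 200 ppb (7 of 80 above 0) and 0.06 at 800 ppb (66 of 80 above 0). The difference was above 0 for 79 of 80, with 0 passing by edgeR. An unadjusted edgeR p of the difference under 0.05 upward was found for 2, against 470 of 18796 members. Within pairs the median was -0.09, 0.04 and -0.13 for replicates 1, 2 and 3, so the 200 ppb direction was not shared by replicate 2. The 800 ppb lean was mostly in replicate 1, with 0.10 and 73 of 80 above 0, against 0.01 and 48 of 80 in replicate 2. The hospital core's pair, in which these genes were low, is replicate 1 of 0 and 200 ppb. The widest fall at 200 ppb was in replicate 3, a provider pair, with 1 of 80 above 0.

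No gene passed at 200 ppb while missing at 800 ppb, so a class responding at the low dose alone was empty. The 5 members with the smallest 200 ppb p and an opposite or much smaller 800 ppb effect were EEF1A1, CLK2 (ENSDARG00000059870), ACADSB, lcn15 and CPN1, with unadjusted edgeR p from 0.00351 to 0.0105. EEF1A1 (ENSDARG00000069951), named as a translation elongation factor, was at 3.82, 8.58 and 9.10 CPM in 0 ppb replicates 1 to 3 and at 3.03, 5.03 and 5.55 CPM in the matching 200 ppb libraries. Each pair went down, with an effect of -0.60 (SE 0.17), and the 800 ppb value was 0.21 (SE 0.23). ACADSB, a mitochondrial enzyme of branched-chain amino acid breakdown, had 0.28 (SE 0.09) at 200 ppb and -0.17 (SE 0.12) at 800 ppb. Their differences had edgeR adjusted p (Benjamini-Hochberg) of 0.999.

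Opposite signs at the doses, a class added after the values were seen, held 3 of the 16 called differences, all genes with no symbol: ENSDARG00000116076, ENSDARG00000115978 and ENSDARG00000114910. They fell at 800 ppb by 0.65, 0.84 and 0.62 on the log2 scale, and had 0.40, 0.29 and 0.39 at 200 ppb with unadjusted edgeR p of 0.00258, 0.0355 and 0.00648. ENSDARG00000116076 was at 11.6, 20.1 and 26.7 CPM in 0 ppb replicates 1 to 3, at 14.7, 31.0 and 31.3 CPM in the matching 200 ppb libraries, at 440 and 437 CPM in 0 ppb replicates 4 and 5 and at 238 and 320 CPM at 800 ppb. The gap between the sets of libraries was far wider than the gap between doses within a set. In the fit with no block the difference turned to the other sign for all 3, at 2.55 for ENSDARG00000116076, 1.90 for ENSDARG00000115978 and 2.27 for ENSDARG00000114910 (log2), and passed for none.

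Among 0 ppb libraries alone, ENSDARG00000116076, ENSDARG00000115978 and ENSDARG00000114910 were 18.7, 11.6 and 9.78 times as high in replicates 4 and 5 as in replicates 2 and 3. The gene zgc:158463, which RefSeq (GRCz12tu) annotates as ribosomal RNA, shared the pattern at 14.9 times, passed at 800 ppb with -0.74 (SE 0.13) and missed for the difference (edgeR, Benjamini-Hochberg adjusted p = 0.11). Across the 10 libraries the log2 levels of the 3 genes correlated with that of zgc:158463 with r of 0.852 to 0.972, and across the 8 provider libraries with r of 0.931 to 0.968, as a description of libraries that share preparation. ENSDARG00000114910 was listed at 0 in both hospital core libraries, so its 200 ppb effect rests on 2 pairs. The part of ribosomal RNA carried into the libraries was not tested.

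**Figure D5:**
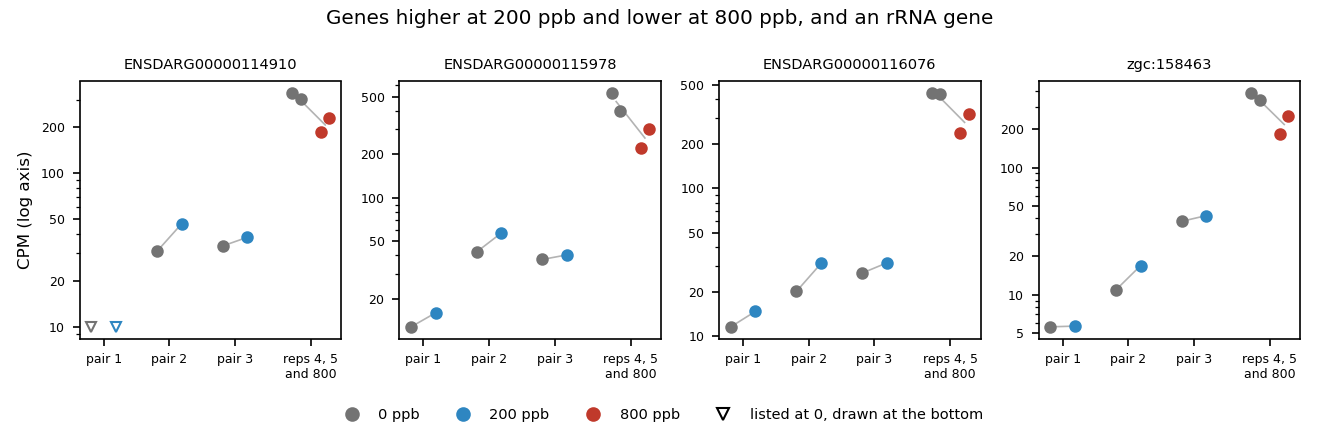
Level in CPM on a log axis of 3 genes without a symbol and of the ribosomal RNA gene zgc:158463 in every library, grey for 0 ppb, blue for 200 ppb and red for 800 ppb; open triangles are libraries listed at 0. All 4 genes are several times higher in 0 ppb replicates 4 and 5 and at 800 ppb than in replicates 1 to 3 of 0 and 200 ppb.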

How the data were processed

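RNA sequencing of 10 libraries was used, with groups and replicate numbers from the sample titles. Raw counts, as whole numbers per Ensembl gene and library, were deposited by the authors and were the input of the tests, and a series table of log2 CPM values, used for an added alternative only. Features that only the hospital core's files held (463, 0.339 and 0.342% of counts) were left out. Per the submitters' processing notes, the build was GRCz11 and the tools included STAR, cutadapt, FastQC and edgeR, of unstated version. How reads were counted, with which annotation and strand setting, is not given in the sources used here, and overlapping genes on opposite strands could not be told apart. The deposited log2 values come in part from another count set than the deposited counts, and levels are printed from the counts.

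The count model was fitted to all 10 libraries in edgeR 4.0.16 (R 4.3.3): TMM scaling, filterByExpr by dose, terms for the dose and for 4 control blocks (pairs 1, 2 and 3, and 0 ppb replicates 4 and 5 with both 800 ppb libraries), and the two-sided quasi-likelihood F-test. Calls were made at a Benjamini-Hochberg adjusted p under 0.05, taken over 20867 tested genes. The pairing was set by the definition of the comparison. Same-numbered 0 and 200 ppb libraries deviated together (r of 0.921, 0.558 and 0.749 over genes), the highest r being that of the hospital core's pair. Numbers shared between 0 and 800 ppb did not (r of -0.188 and 0.049). CPM are TMM-scaled. Standard errors are the log2 change over the root of F, and intervals are 95% with 14.6 degrees of freedom. The fit was also run on simulated counts that held no differences between sites or control blocks. That run does not examine calibration in these libraries.

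Gene IDs were named from a table that uses human-style symbols. The 33 gene lists hold 901 entries: 740 were found under the symbol as written, 33 with a paralog letter added and 60 with it removed, and 68 were not found. The members and the lists were chosen with earlier results of these data known, the class of opposite signs was added after the values were seen, and 1 wrong match in the cell division list was removed then. Named genes were, in each class, up to 12 with a proper symbol and the smallest p, the 5 with the smallest 200 ppb p where the low-dose class was empty, and up to 2 per list with the smallest p of the difference; genes named beyond these, such as HSP90AB1, were chosen after their values were seen. Alternatives were other scalings, filters, blocks, DESeq2 1.42.0, limma 3.58.1 and leaving out each library. No genome was used, and no coordinates or sequences are given.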

Additional observations from a re-analysis of the deposited data

Results flagged for a closer look

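Of 32 genes checked over the 5 libraries at 0 ppb, 2 had a library far from the others by Dixon's criterion, about as many as chance gives at 1 in 20. HSPA4 was lowest in replicate 1, at 64.32 CPM, the hospital core's control, where the other 4 were at 96.2 to 107 CPM. CLK2 was highest in replicate 2, at 25.99 CPM, where the other 4 were at 15.9 to 18.6 CPM, and this library is the control of the pair with the widest CLK2 gap, 17.8 CPM at 200 ppb.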

How the results depend on the processing

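Calls of the difference, of 800 ppb and of 200 ppb numbered 16, 65 and 0. With pairs 1 to 3 and 2 further pairs, not in the labels, as replicate block, they numbered 115, 275 and 1, with 91 high-dose, 14 graded and 163 genes without a called difference and 3 at low dose or opposite. With no replicate block and a site term they numbered 0, 9 and 0, with 0 high-dose and 0 graded genes, 9 without a called difference and 88.89% of the same sign. With the label's replicate number as block over all doses, a pairing that the 800 ppb libraries did not share, they numbered 1110, 657 and 0, with 632 high-dose, 1 graded, 24 without a called difference, 477 at low dose or opposite and 48.1% of the same sign. Without a filter on low counts they numbered 100, 215 and 8, with 77, 13, 117 and 2 in the classes in the order above. DESeq2 gave 29 and 99, with 22 high-dose genes. The authors' log2 table with limma, an alternative chosen after seeing the data, gave 7 differences with 4 high-dose genes. The provider's libraries alone, nearly the same fit as leaving out a library of pair 1, gave 2, with 1 high-dose and 1 graded gene. DESeq2 size factors, limma-voom and a fit on genes of at least 1 CPM gave 14 to 16 differences and 63 to 80 genes at 800 ppb. A prior count of 0.5 moved the median difference of log2 CPM effects from 0.0028 to 0.0029.

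Leaving out each library in turn gave 2 to 56 differences, 33 to 114 genes at 800 ppb, 0 at 200 ppb, 1 to 41 high-dose and 1 to 11 graded genes, 27 to 58 without a called difference, 0 to 1 at low dose or opposite, and 70.18 to 90.91% of the same sign. The 16 differences, picked from these same libraries and so likely to keep their sign, did so in every alternative except 2. These were the fits without a block and with the label's number as block, where 13 of 16 did (the authors' table holds 15 of them). The 3 that reversed were ENSDARG00000116076, at 2.55 without a block and 3.74 with the label's number (log2), ENSDARG00000115978, at 1.90 and 3.17, and ENSDARG00000114910, at 2.27 and 7.01. Over the named and called genes and all alternatives, 152 values lost and 158 gained a call of the difference and 36 uncalled values changed sign, 33 of these in the same fits. The cause of these changes was not tested. With 2 libraries at 800 ppb and 3 pairs at 200 ppb, a median member's difference had a standard error of 0.21, and its 95% interval held 0 unless the difference passed 0.45 (log2).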
